A study of Saccharomyces cerevisiae BY4741 with 40 samples.

Results

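In budding yeast, 146 clusters of mRNA transcription start sites (mRNA-TSSCs), on 142 genes, gave more than 2 times as many normalised reads in *set2∆* cells as in wild-type cells. A TSSC is a group of neighbouring 5′ ends of capped RNAs, and the study assigned it to an mRNA when it overlapped the 5′ leader of that mRNA on the same strand. The 146 clusters were chosen from the deposited table of the *SET2* experiment by their class, by a mean of wild-type and *set2∆* of 10 or more, and by a ratio (*set2∆* + 1)/(wild-type + 1) above 2. They are 2.8% of the 5222 mRNA-TSSCs with such a mean, out of 5989 mRNA-TSSCs and 21707 TSSCs of all classes in that table. Since the wild-type and *set2∆* values chose the clusters, those values are given as a description.

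Set2 is the histone methyltransferase that travels with elongating RNA polymerase II and methylates lysine 36 of histone H3 over the bodies of transcribed genes. The mark recruits the Rpd3S deacetylase complex, which keeps the chromatin behind the polymerase compact and is best known for repressing initiation inside genes. Transcription that passes over a promoter can place the same mark there, and Set2 is also known to act on mRNA promoters in this way. Upf1 is the helicase at the centre of nonsense-mediated mRNA decay (NMD), which degrades RNAs whose translation stops early, for example after an upstream ORF. Rrp6 is the nuclear exosome subunit that degrades many unstable non-coding RNAs.

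The *SET2* experiment had 12 libraries of capped 5′ ends of poly(A)+ RNA, 3 for each of 4 genotypes: wild-type, the single mutants *set2∆* and *upf1∆*, and the double mutant *upf1∆set2∆*. The *RRP6* experiment had 12 more, in which *rrp6∆* and *upf1∆rrp6∆* took the place of the mutants without Set2. All were haploid BY4741 cells that also lacked *CAN1* (can1_delta), the wild-type included, and were grown to mid-exponential phase in rich glucose medium. According to the labels, *set2∆* carried set2_delta ::KANMX6, *upf1∆* carried upf1_delta ::KANMX6, and *upf1∆set2∆* carried set2_delta ::KANMX6 with upf1_delta ::HIS3MX6. By the same labels *rrp6∆* carried rrp6_delta ::hphMX6, and *upf1∆rrp6∆* carried upf1_delta ::KANMX6 with rrp6_delta ::HPHMX6. For the *upf1∆* strain of the labels, the strain list of the methods gives another marker, HIS3MX6. That list also holds another *upf1∆* strain with KANMX6, and an *upf1∆rrp6∆* strain with HIS3MX6 for *upf1∆*. One strain gave all *upf1∆* libraries of both experiments and one strain gave all *upf1∆set2∆* libraries, whereas the libraries of every other genotype came from a pair of strains. The tables hold 1 read value for each genotype, made by the study from its 3 libraries. The spread between libraries could therefore not be measured here, and no test was run. The fold changes and p-values that the study computed with DESeq2 were not used.

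The results below were read against all 5222 mRNA-TSSCs. Over all TSSCs, the values summed to between 3914205 reads in wild-type and 4590115 in *upf1∆*. The cluster upstream of *SET2* fell from 40 in wild-type to 6 in *set2∆* and had 13 in *upf1∆set2∆* against 26 in *upf1∆*. The cluster of *NAM7*, which encodes Upf1, had 111 in wild-type and 165 in *upf1∆*. Both clusters lie upstream of the deleted ORF, so they do not check the deletions. *ACT1* (actin) ranged from 14490 to 17697. Markers of **a** cells, the mating type of BY4741, summed over 6 of 6 genes to 7342 reads in wild-type, 5359 in *upf1∆*, 5016 in *set2∆* and 2991 in *upf1∆set2∆*, and markers of alpha cells, of which 3 of 8 were found, to between 50 and 160. The part of this difference in the results below was not tested.

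Of the 11 DNA motifs searched in the 250 nt upstream of the clusters, on both strands, AGGGG was the one whose share differed most, in percentage points, between the raised clusters and all mRNA-TSSCs. It is the core of the stress response element, which the stress factors Msn2 and Msn4 bind. It was found upstream of 75 of the 146 raised clusters (51.4%) and of 21.5% of all 5222 mRNA-TSSCs. In windows of 150 nt it was found upstream of 36.3% of the raised clusters and 14.4% of all, and in windows of 500 nt upstream of 66.4% and 36.6%. Without the 12 raised clusters of the stress list described below, 66 of 134 (49.3%) held it. The windows of 6 raised clusters on stress genes are shown because they carry this motif, 30 nt each on the strand of the mRNA in build R64, with the copy nearest the cluster in capitals (it reads CCCCT where it lies on the other strand). They are chrII:381700-381729 (+ strand) for *HSP26*, chrXV:231913-231942 (− strand) for *DDR2*, chrXII:660508-660537 (+ strand) for *GSY2*, chrVII:654489-654518 (+ strand) for *CTT1*, chrIV:94433-94462 (+ strand) for *RTN2* and chrXV:657104-657133 (+ strand) for *DCS2*.
HSP26: cctcCCCCTtatgcgtccaaaaatataggg
DDR2: tgtcttttctcaCCCCTtatgggacatcaa
GSY2: gaacgcaattcaCCCCTttctttcttatgc
CTT1: catttatcgtatCCCCTactgctacacgta
RTN2: cataggcaatctCCCCTtattgttcaccct
DCS2: aggggggaaataAGGGGtgacaataccaat

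In these 6 windows the nearest copy ended between 47 nt (*DCS2*) and 242 nt (*HSP26*) upstream of the cluster. The iron regulon motif TGCACCC, the core of the Aft1 site, was found upstream of 5 raised clusters (3.42%, against 1.13% of all), those of *VMR1*, *FTR1*, *FRE5*, *TRP1* and *HEM1*. The windows of the iron transporter gene *FTR1* (chrV:461897-461926, − strand) and the ferric reductase gene *FRE5* (chrXV:1061323-1061352, + strand) are shown as its examples, on the strand of the mRNA with the motif in capitals.
FTR1: gcgtagatgaaTGCACCCgatttctaagtt
FRE5: cggaacaaacaGGGTGCAaaaaaaaatcta

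The other 9 motifs differed in both directions. CGGGTAA, the site of the general regulatory factor Reb1, was found upstream of 2 raised clusters (1.37%, against 9.63%), and TGAAACA, the site of the mating factor Ste12, also upstream of 2 (1.37%, against 5.99%). TATAAA was found upstream of 43.8% of the raised clusters and 40.7% of all, and TATATA, which can overlap it, upstream of 37.0% and 33.2%. For GGCGGC (Ume6), TTCNNGAA (heat shock factor), TGACTC (Gcn4), CACGTG (E box) and GATGAG (PAC element) the shares were 6.85% and 4.92%, 8.90% and 11.5%, 7.53% and 7.12%, 2.74% and 4.48%, and 17.8% and 17.0%. A match describes the letters of the window and does not show that a factor binds there.

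Among the 146 clusters, the wild-type values ran from 1 to 1331 normalised reads with a median of 35, and the *set2∆* values from 14 to 3517 with a median of 99.5. In 29 of the 146 the wild-type value was under 10. The log2 ratio of *set2∆* to wild-type ran from 1.02 to 5.30, with a median of 1.37, whereas the median of all 5222 mRNA-TSSCs was 0.11. In the opposite direction 43 mRNA-TSSCs (0.823%) fell by more than 2-fold. In this bulk RNA, more cells with an RNA and more RNA per cell cannot be told apart.

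The clusters just inside the limit were those of *YMD8*, a putative nucleotide sugar transporter gene, with 44 in wild-type and 90 in *set2∆*, and of *YGP1*, a secreted glycoprotein gene, with 356 and 722. Just outside it, at exactly 2 times, were those of *ALE1* with 7 and 15 and of *RGI2* with 8 and 17. The cluster of *YGP1* had 266 in *upf1∆* and 715 in *upf1∆set2∆*, and that of *ALE1* had 57 and 61.

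The raised clusters had lower levels than mRNA-TSSCs in general. The mean of wild-type and *set2∆* had a median of 67.2 over the 146 and of 130 over all 5222. They made up 46 of 815 mRNA-TSSCs with a mean from 10 to 30 (5.64%), 41 of 1459 from 30 to 100 (2.81%), 33 of 1298 from 100 to 300 (2.54%) and 26 of 1650 from 300 up (1.58%). The mean is part of the rule, so these shares are a description.

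The *upf1∆* and *upf1∆set2∆* values took no part in the rule, although the study built the clusters themselves from libraries of all genotypes of the experiment. These values asked whether the same clusters were higher when *SET2* was deleted from cells without NMD. Of the 146 clusters, 65 (44.5%) were raised by more than 2-fold in *upf1∆set2∆* over *upf1∆*, and 0 were lowered by more than 2-fold. Among all 5222 mRNA-TSSCs, 107 (2.05%) were raised and 76 (1.46%) were lowered. The median log2 ratio was 0.91 over the 146 and 0.05 over all. The ratio was above 0 in 140 of the 146, at 0 in 3 and below 0 in 3, whereas it was above 0 in 54.3% of all mRNA-TSSCs. With a limit of 1.5-fold, 101 of the 146 and 8.69% of all were raised.

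The 65 clusters were 60.7% of the 107 raised in *upf1∆set2∆* over *upf1∆*, and the other 42 were among the 5076 clusters outside the 146 (0.827%). The share of the raised clusters that were also raised without Upf1 was 39.1% at means from 10 to 30, 51.2% from 30 to 100, 48.5% from 100 to 300 and 38.5% from 300 up. The corresponding shares of all mRNA-TSSCs were 4.42%, 2.54%, 1.54% and 0.848%.

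**Figure D1:**
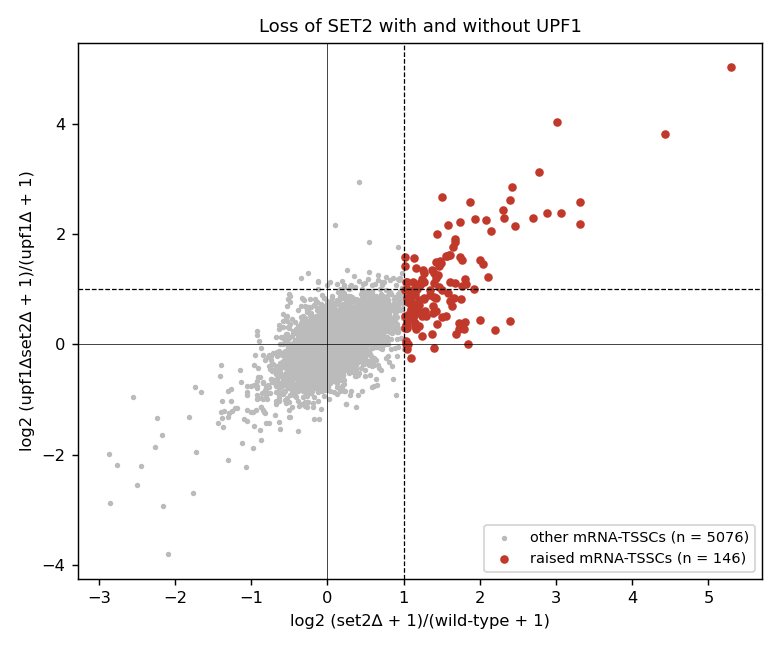
Log2 ratio of *set2∆* to wild-type (x axis) against log2 ratio of *upf1∆set2∆* to *upf1∆* (y axis), with 1 added to each value, for the 146 raised mRNA-TSSCs (red) and the 5076 others (grey). Dashed lines mark 2-fold; the red points lie to the right of the vertical one by choice, 65 of them lie above the horizontal one and 3 lie below 0.

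No value for single libraries was at hand and the authors' p-values were not used. Error was therefore judged between the 2 experiments, which both measured *upf1∆* and wild-type. The difference between their log2 ratios of *upf1∆* to wild-type had an SD of 0.22 over 5171 paired mRNA-TSSCs and of 0.36 over the 137 raised clusters with a pair. The SD fell from 0.35 at means from 10 to 30 to 0.13 at means from 300 up. The wild-type values alone, scaled to a median of 0 between the experiments, differed with an SD of 0.49 on the log2 scale over the same 5171 pairs. These measures compare 2 separate sets of libraries, but for other contrasts than that of *SET2*.

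The largest ratios of *upf1∆set2∆* to *upf1∆*, among clusters with a mean of 20 or more in these genotypes, included genes that were nearly silent in wild-type. The cluster of *YNR062C* (*PUL3*, a putative transporter of the iron-binding pigment pulcherrimin) had 8 in wild-type, 353 in *set2∆*, 10 in *upf1∆* and 358 in *upf1∆set2∆*, a log2 ratio of 5.03 in the *upf1∆* background. The cluster of *YNR064C*, an epoxide hydrolase gene 4952 nt away on the same strand of chromosome XIV, had 13, 112, 10 and 180 in the same order (log2 ratio 4.04). The values of the gene between them on the other strand, *YNR063W*, were 39, 25, 54 and 38. Both *YNR062C* and *YNR064C* were thus high in the pair of genotypes without Set2 and low in the pair with it, while *YNR063W* was not.

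The cluster of *YNL140C* had 1 in wild-type, 42 in *set2∆*, 2 in *upf1∆* and 41 in *upf1∆set2∆*. It spans chrXIV:361440-361547 and lies inside the ORF of *THO2*, a subunit of the THO complex of mRNA export, on the same strand. *THO2* runs from 360924 to 365717, and the midpoint of the cluster was 569.5 nt from its 3′ end, so this cluster starts late in the body of a longer gene. RefSeq describes *YNL140C* as an ORF that partly overlaps *THO2*, and the reads could belong to either.

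The cluster of *YJR149W*, a putative nitronate monooxygenase gene, had 6 in wild-type, 47 in *set2∆*, 5 in *upf1∆* and 51 in *upf1∆set2∆*. The values of *CRS5*, a copper-binding metallothionein gene, were 8, 47, 7 and 57, and those of *YKL071W* (*OSI1*), an aldehyde reductase gene, were 11, 33, 7 and 50. In these 3 genes, as in those before them, both values with Set2 were below both values without it. *ZRT1*, which encodes the high-affinity zinc transporter, had 36, 194, 23 and 147. The same gene has a cluster 2051 nt upstream of its ATG, in which the values were 14 in wild-type, 9 in *set2∆*, 158 in *upf1∆* and 84 in *upf1∆set2∆*, so this one was higher without Upf1 and not without Set2. A cluster 323 nt upstream had 5, 9, 24 and 35, and one 197 nt upstream 2, 12, 13 and 59. Both were higher without Set2 and also higher without Upf1, from wild-type values under 10. In the cluster 323 nt upstream the rise without Set2 was under 2-fold in both backgrounds.

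The remaining clusters named for their ratio were those of *PET122*, *HPF1*, *YNL277W-A* and *AQY2*. *HPF1*, a cell wall mannoprotein gene, had 24 in wild-type, 123 in *set2∆*, 15 in *upf1∆* and 85 in *upf1∆set2∆*. *AQY2*, a water channel gene, had 12, 64, 9 and 48, and *YNL277W-A*, of unknown function, had 7, 58, 12 and 67. Over the 12 clusters with the largest ratios, the log2 ratio ran from 2.29 (*AQY2*) to 5.03 (*YNR062C*).

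**Figure D2:**
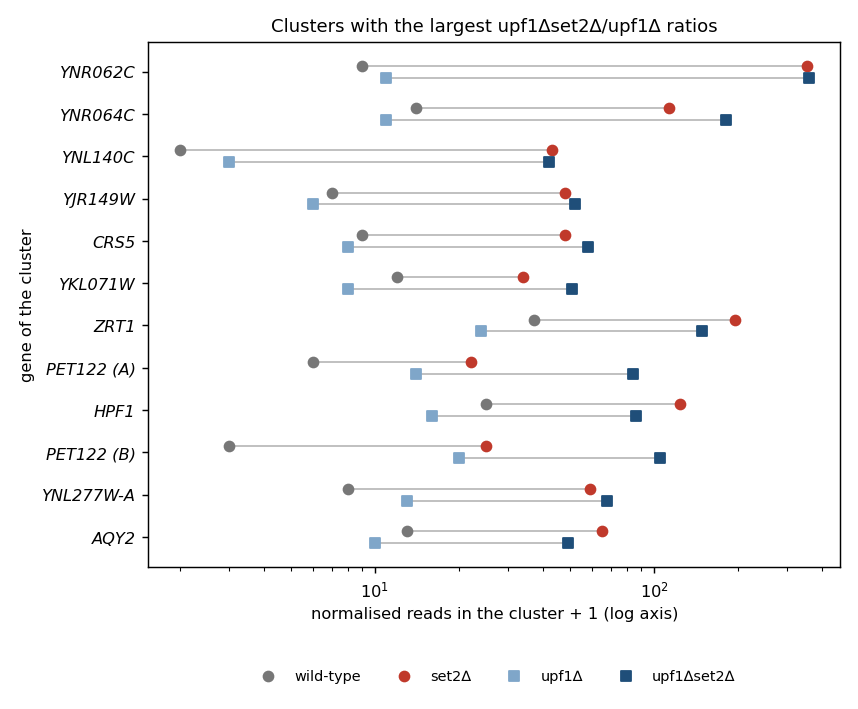
Normalised reads + 1 (log axis) in the 4 genotypes for the 12 clusters with the largest ratio of *upf1∆set2∆* to *upf1∆*; lines join wild-type with *set2∆* (circles) and *upf1∆* with *upf1∆set2∆* (squares), and each point is 1 value for 3 libraries. In all 12 both genotypes with Set2 lie below both genotypes without it (for *PET122*, A is the cluster nearer the ATG).

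At the other end, among clusters with a mean of 20 or more in these genotypes, the 6 smallest ratios in the *upf1∆* background were 0.19 or less on the log2 scale. Below that mean, *RIM4* (0.15), *SHH4* (0.00), *YBR138C* (−0.08) and *YPL088W* (−0.24) also had such ratios. The cluster of *CIN5*, a bZIP transcription factor of drug resistance and salt tolerance, had 34 in wild-type and 125 in *set2∆*, but 116 in both *upf1∆* and *upf1∆set2∆*. *YJR115W*, of unknown function, had 80, 213, 237 and 226 in wild-type, *set2∆*, *upf1∆* and *upf1∆set2∆*, and *YBL100W-C*, of unknown function, 56, 115, 209 and 220. In these 3 clusters the value in *upf1∆* was already near or above that in *set2∆*. The cluster of *RPI1*, a transcription factor gene, differed from them, with 42 in wild-type, 87 in *set2∆* and 21 in both *upf1∆* and *upf1∆set2∆*. *ISF1*, whose overexpression suppresses growth defects of *hap* mutants, had 54, 176, 88 and 100, and *YNR014W*, which is heat-inducible, 107, 278, 152 and 173. *ISF1* is the gene next to *NAM7*, the deleted locus of *upf1∆*.

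Among the clusters with the highest *set2∆* values were those of metabolic and stress genes expressed in wild-type. *GSY2*, the main glycogen synthase gene, had 1331 in wild-type, 3517 in *set2∆*, 1428 in *upf1∆* and 3074 in *upf1∆set2∆* (log2 ratio in the *upf1∆* background 1.11). *RTC3*, of RNA metabolism, had 990, 2509, 1079 and 2017, and *SDP1*, a stress-inducible phosphatase of the Slt2 MAP kinase, 712, 1530, 807 and 1138. *PTR2*, the di- and tripeptide transporter gene, had 637, 1368, 623 and 970. In all 4 genes both values without Set2 were above both values with it. The same held for *DDR2* (549, 1323, 474 and 1046), a multi-stress gene. It also held for *ALD5* (412, 951, 454 and 683), a mitochondrial aldehyde dehydrogenase gene, and for *YIR016W* (370, 1087, 442 and 632), of unknown function.

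The stress induced list held 48 mRNA-TSSCs with a mean of 10 or more, and 12 of them (25.0%, against 2.8% of all mRNA-TSSCs) were among the raised clusters. These were the clusters of the chaperone gene *HSP26*, the plasma membrane stress protein gene *HSP30*, the catalase gene *CTT1*, the cell wall protein gene *SPI1*, *DDR2*, *DCS2*, *GSY2*, *GLC3*, *YGP1*, *YRO2*, *RTN2* and *TFS1*. Over the 48, the median log2 ratio of *set2∆* to wild-type was 0.63, 42 were above 0, and 0 fell by more than 2-fold. In *upf1∆set2∆* over *upf1∆*, 10 of the 48 rose by more than 2-fold (2.05% of all), 1 fell (1.46% of all), and the median was 0.46 (0.05 over all). Of the 12 raised clusters, 8 rose by more than 2-fold in that pair of genotypes.

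The values of single stress genes show a rise on levels that differed widely. *HSP30* had 120 in wild-type, 496 in *set2∆*, 157 in *upf1∆* and 430 in *upf1∆set2∆*, and *SPI1* 102, 330, 135 and 293. *HSP26* had 146, 393, 75 and 214, so its value in *upf1∆* was below that in wild-type. *CTT1* had 175, 545, 408 and 658 and *RTN2*, a reticulon gene, 162, 380, 343 and 517, and in both the log2 ratio in the *upf1∆* background was under 1 (0.69 and 0.59). *DCS2*, a regulator of mRNA cap hydrolysis, had 296, 663, 298 and 608. The cluster of *TFS1*, a carboxypeptidase Y inhibitor gene, had 4, 19, 18 and 25, whereas the main cluster of the gene had 1642 in wild-type and 2293 in *set2∆*, so this one is a minor start site.

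**Figure D3:**
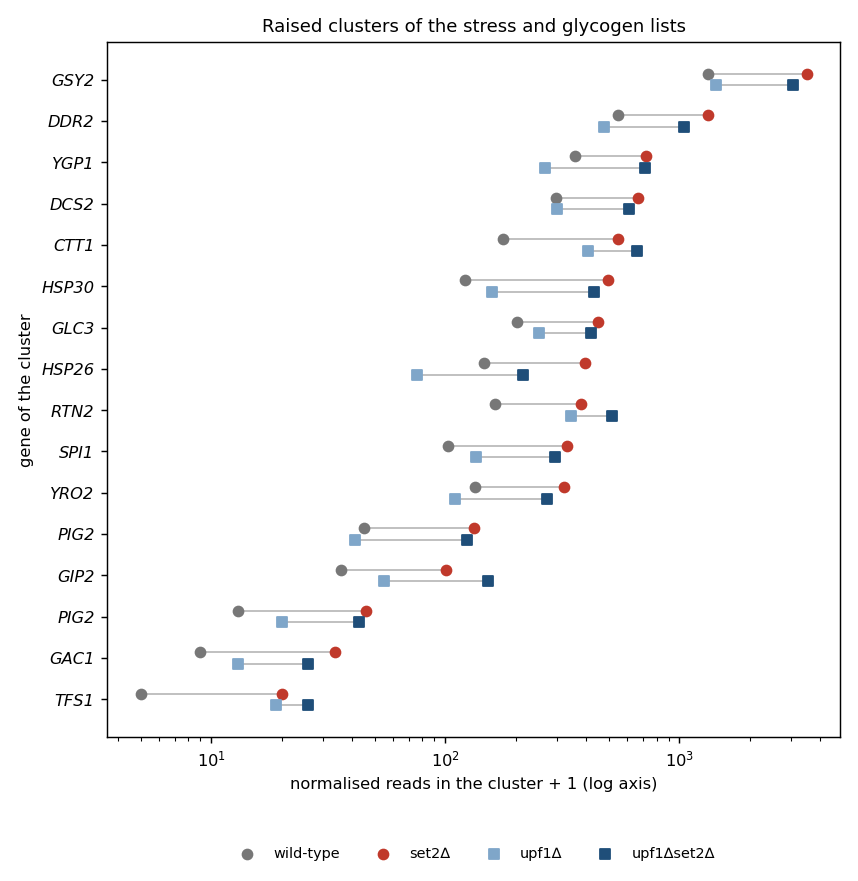
Normalised reads + 1 (log axis) in the 4 genotypes for the raised clusters of the stress induced and glycogen lists, from *GSY2* to *TFS1* in order of the *set2∆* value; lines join wild-type with *set2∆* (circles) and *upf1∆* with *upf1∆set2∆* (squares), and each point is 1 value for 3 libraries. In every row the value without Set2 is the higher of each joined pair, for the circles by the choice of the clusters.

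Enzymes of glycogen synthesis and regulators of its synthase were among the genes with raised clusters. A list of 12 glycogen genes, chosen after the values were seen, held 12 mRNA-TSSCs with a mean of 10 or more, of which 6, on 5 genes, were raised. They included *GSY2*, the branching enzyme gene *GLC3* (201 in wild-type, 447 in *set2∆*, 251 in *upf1∆* and 418 in *upf1∆set2∆*) and 3 genes for subunits that direct the phosphatase Glc7 to glycogen synthase. Of these, *GIP2* had 35, 100, 54 and 151, *GAC1* had 8, 33, 12 and 25, and the main cluster of *PIG2* had 44, 132, 40 and 123. The other synthase gene, *GSY1*, lay just below the limit with 137 in wild-type and 273 in *set2∆*.

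Of 17 clusters in the list of glucose-repressed carbon source genes, 6 (35.3%, against 2.8% of all mRNA-TSSCs) were among the raised clusters. The cluster of *CYB2*, the lactate dehydrogenase gene, had 11 in wild-type, 65 in *set2∆*, 17 in *upf1∆* and 79 in *upf1∆set2∆*. Those of *HAP4*, the activator subunit of the respiratory CCAAT-binding complex, were 434, 895, 477 and 667. In both genes the values without Set2 were above those with it. *MAL31*, the maltose permease gene, had 43, 94, 217 and 311, and one of the clusters of the invertase gene *SUC2* had 22, 50, 57 and 109. The other 2 were those of *ADH2* (10, 28, 15 and 28), alcohol dehydrogenase II, and *ADR1* (23, 48, 42 and 54), its activator. Only *CYB2* was raised by more than 2-fold in the *upf1∆* background, so 1 of the 6 passed there.

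In the list of metal homeostasis genes 3 of 38 clusters were raised (7.89%, against 2.8% of all mRNA-TSSCs). In *upf1∆set2∆* over *upf1∆*, 6 of the 38 rose by more than 2-fold and 1 fell (2.05% and 1.46% of all). The 3 raised clusters were among those 6. Besides *ZRT1*, they were *FTR1*, with 213 in wild-type, 440 in *set2∆*, 138 in *upf1∆* and 279 in *upf1∆set2∆*, and *FRE5*, with 33, 91, 69 and 279. In the drug and oxidant list 4 of 30 were raised (13.3%), and the same 4 were those raised in the *upf1∆* background. These were *GPX1* (219, 586, 704 and 1620), a phospholipid hydroperoxide peroxidase gene, and *BDH2* (158, 441, 161 and 462), a putative alcohol dehydrogenase gene. The others were *GTT2* (34, 105, 56 and 174), a glutathione transferase gene, and *RSB1* (23, 76, 16 and 63), a sphingoid base efflux transporter gene.

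The amino acid biosynthesis list held 2 raised clusters of 76 (2.63%), near the 2.8% of all mRNA-TSSCs, while 9 of the 76 fell by more than 2-fold (0.823% of all). In *upf1∆set2∆* over *upf1∆*, 1 of the 76 rose and 16 fell (2.05% and 1.46% of all). The raised ones were that of *TRP1*, with 145 in wild-type, 313 in *set2∆*, 314 in *upf1∆* and 522 in *upf1∆set2∆*, and a minor one of *GDH1*, the glutamate dehydrogenase gene, with 15, 32, 154 and 200. The main cluster of *GDH1* had 3047 in wild-type and 2086 in *set2∆*. The list of subtelomeric families held 1 raised cluster of 16, that of *COS111* (127, 443, 243 and 293), which RefSeq describes as unrelated to the subtelomeric *COS* family.

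No raised cluster belonged to the lists of cytosolic ribosomal proteins (140 clusters), respiratory chain (40), Set2 and Rpd3S pathway (25), mating and pheromone (24), phosphate response (18), glycolysis (17), cell wall and flocculins (17), histones (14) or meiosis and sporulation (6). At the 2.8% of all mRNA-TSSCs, lists of these sizes would hold few raised clusters or none. The lists are also not complete: *HPF1*, a cell wall gene with a raised cluster, is in none of them. In all, 28 of the 146 clusters fell in the 15 lists, and 118 did not.

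In the *RRP6* experiment the wild-type libraries were separate ones, and 137 of the 146 clusters overlapped an mRNA-TSSC of that table. Against this wild-type, after scaling the median of all paired mRNA-TSSCs to 0, *set2∆* was more than 2-fold higher in 113 of the 137 and more than 2-fold lower in 2, with a median of 1.35. Among 5171 paired mRNA-TSSCs, 3.33% were higher and 5.98% lower. The *set2∆* values are those the clusters were chosen on, so only the wild-type side is new here. The 9 clusters without a pair were those of *YNL140C*, *YJR149W*, *YKL071W*, *PGU1*, *CYB2*, *RSB1*, *PDB1*, *CLD1* and *YMR181C*.

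Cells without Rrp6 gave a different picture of these clusters. In *rrp6∆* over wild-type, 18 of the 137 (13.1%) fell by more than 2-fold and 12 (8.76%) rose, against 2.53% and 2.73% of all mRNA-TSSCs, so both tails were wider than the background. The median log2 ratio was −0.17 over the 137 and 0.04 over all. Of the 18 that fell, 16 had AGGGG in the 250 nt upstream, and 6 were in the stress list. Over the whole stress list, raised or not, 14 of 47 paired clusters fell, with a median of −0.53. The fall of stress list clusters was thus not limited to the raised ones.

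Among those that fell was *HSP26*, with 169 in wild-type, 28 in *rrp6∆*, 87 in *upf1∆* and 29 when Rrp6 and Upf1 were both missing. *RTN2* had 192, 45, 382 and 101 in the same order, *DCS2* 361, 97, 352 and 120, and *PTR2* 687, 192, 741 and 473. *BDH2* had 201, 55, 193 and 51, and *SDP1* 832, 310, 870 and 391. In each of these 6 genes *rrp6∆* was lower than wild-type and *set2∆* higher, both by the choice of the clusters.

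Grouped by the motif, 16 of 72 paired clusters with AGGGG (22.2%) fell in *rrp6∆*, with a median of −0.37, and 2 of 65 without it (3.08%), with a median of 0.00. Over all paired mRNA-TSSCs the shares were 5.60% with the motif and 1.70% without it. In *upf1∆set2∆* over *upf1∆*, 32 of 75 raised clusters with the motif (42.7%) and 33 of 71 without it (46.5%) rose by more than 2-fold, with medians of 0.93 and 0.87. Over all mRNA-TSSCs the shares for that pair of genotypes were 4.0% with the motif and 1.51% without it.

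**Figure D4:**
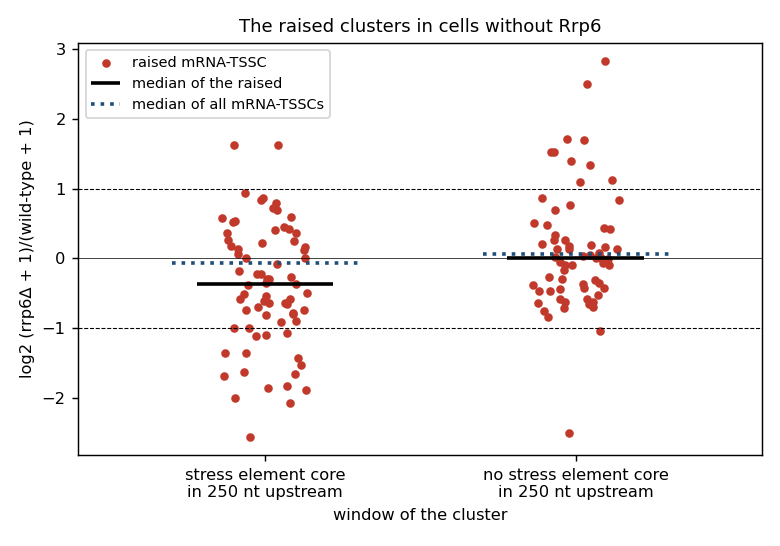
Log2 ratio of *rrp6∆* to wild-type in the *RRP6* experiment (y axis) for the raised mRNA-TSSCs with (72) and without (65) the stress response element core in the 250 nt upstream; each point is 1 cluster, black lines are their medians, dotted lines the medians of all paired mRNA-TSSCs, and dashed lines mark 2-fold. Below the lower dashed line lie 16 clusters with the motif and 2 without it.

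The 12 clusters that rose in *rrp6∆* included genes of several functions. The cluster of *COG3*, a Golgi tethering complex gene, had 58 in wild-type and 415 in *rrp6∆* of that experiment, and that of *SNG1*, a drug resistance gene, 321 and 931. *SNZ1* and *SNO1*, the vitamin B6 synthesis genes, went from 25 to 65 and from 11 to 25. Of the 12, 2 had AGGGG upstream (*YPL272C* and *HPF1*), and 10 had a positive log2 ratio of *upf1∆* to wild-type, as did 104 of all 137. The others were *YHR022C-A*, *YPL088W*, *MED1*, *GIP3*, *GDH1* and *YDR222W*.

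The *RRP6* experiment also gave the response of the raised clusters to loss of Upf1 in libraries that the choice had not used. In *upf1∆* over wild-type, 33 of the 137 (24.1%) rose by more than 2-fold and 4 fell, against 9.9% and 0.387% of all mRNA-TSSCs, and the median was 0.42 against 0.05. With a mean of 50 or more, 14.1% of 85 rose, against 6.73% of all, so 12 of the 33 that rose had such a mean. In *upf1∆rrp6∆* over wild-type, 40 of the 137 rose and 13 fell, against 14.4% and 2.09%.

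Within the *SET2* experiment, 40 of the 146 rose in *upf1∆* over wild-type (10.4% of all) and 18 rose in *upf1∆set2∆* over *set2∆* (9.17% of all). These comparisons share the wild-type or the *set2∆* values that chose the clusters. *GPX1* had a large difference of this kind in both experiments, with 219 in wild-type and 704 in *upf1∆* of the *SET2* experiment and 279 and 890 of the *RRP6* experiment.

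The raised clusters lay farther from the start codon than other mRNA-TSSCs. The distance from the midpoint of the cluster to the annotated ATG had a median of 85.8 nt (quartiles 37.4 and 205 nt), whereas over all mRNA-TSSCs it was 45.5 nt (24.5 and 90 nt). At least 1 ATG lay between the cluster and the annotated start in 42 of the 146 (28.8%), against 8.45% of all. In 10 of the 146 the midpoint lay inside the ORF, and in 4 it lay more than 1000 nt upstream. The 4 were 2 clusters of *YMR182W-A* (1344 and 1539 nt) and those of *YPL272C* (1634 nt) and *YFL054C* (5080 nt).

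A cluster is called minor here when it held less than 50% of the wild-type reads in all mRNA-TSSCs of its gene, even where it was the largest of them. Of the 146, 37 (25.3%) were minor, against 6.15% of all mRNA-TSSCs. The wild-type value is part of the rule and favours clusters low in wild-type, so this share is a description. In the 109 others the median distance was 74 nt, against 44 nt over 4901 such clusters, and 17.4% had an upstream ATG, against 5.71%. In the 37 minor clusters it was 199 nt, against 190.5 nt over 321, and 62.2% had an upstream ATG, against 50.2%. The distance of the minor clusters was thus near that of minor clusters in general, and that of the main clusters was longer. In the *upf1∆* background 50 of the 109 were raised by more than 2-fold, against 1.71% of the 4901, and 15 of the 37, against 7.17% of the 321.

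The upstream ATGs went with the response to Upf1. Of the raised clusters with an upstream ATG, 16 of 41 (39.0%) rose in *upf1∆* of the *RRP6* experiment, close to the 40.7% of all mRNA-TSSCs with one. Of those without, 17 of 96 (17.7%) rose, against 7.04% of all mRNA-TSSCs without one.

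**Figure D5:**
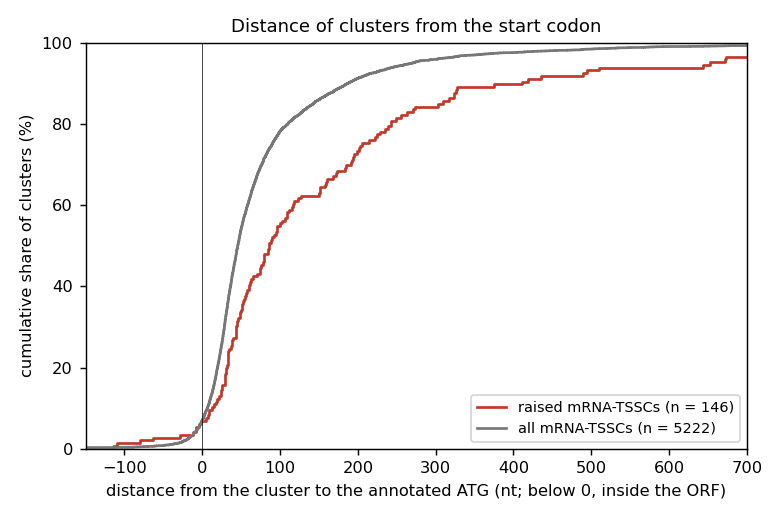
Cumulative share (y axis, %) of the 146 raised mRNA-TSSCs (red) and of all 5222 (grey) by the distance from the midpoint of the cluster to the annotated ATG (x axis, nt; below 0 the midpoint lies inside the ORF). The red curve lies to the right of the grey one, with medians of 85.8 and 45.5 nt.

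Most raised clusters, like most mRNA-TSSCs, lay in no transcript of another mRNA, but their share was lower than that of all. Of the 146, 132 (90.4%) overlapped no annotated transcript of another mRNA, against 95.4% of all. The other 14 lay in a transcript of the same strand in 6 (4.11%, against 2.99%) and of the opposite strand in 8 (5.48%, against 1.57%). A start site of any class with 10 or more wild-type reads lay on the same strand within 1000 nt upstream of 49 of the 146 (33.6%), against 22.5% of all, a window chosen after the values were seen. Among clusters that held at least 50% of their gene, these shares were 29.4% and 20.8%.

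Within 30 kb of a chromosome end lay 14 of the 146 (9.59%), against 3.89% of all. The nearest was that of *YHL050C*, 3.26 kb from the end of chromosome VIII, with 13 in wild-type and 32 in *set2∆*. *ZRT1* lay 20.9 kb from an end of chromosome VII, beside *ADH4* at 14.9 kb, and *DAL5* and *PGU1* lay 26.3 and 22.9 kb from an end of chromosome X. Raised clusters were found on all 16 chromosomes.

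Pairs of clusters that pointed away from each other allowed a look at shared intergenic regions. In 3 pairs of neighbouring divergent genes, both genes had a raised cluster. *SNZ1* had 20 in wild-type, 209 in *set2∆*, 60 in *upf1∆* and 276 in *upf1∆set2∆*, and *SNO1*, whose cluster was 321 nt away, had 11, 77, 23 and 116. *YMR090W* had 93, 417, 92 and 386, and a minor cluster of *YTA12*, a mitochondrial protease gene, 981 nt away, had 11, 32, 17 and 36. The larger cluster of *YTA12* had 164 in wild-type and 149 in *set2∆*, so it was not raised. The third pair was *PTR2* and a minor cluster of *SRP40*, a nucleolar protein gene, which had 37, 78, 53 and 91, while the larger cluster of *SRP40* had 122 in wild-type and 113 in *set2∆*. In both *YTA12* and *SRP40*, therefore, the raised cluster was a minor start site of the gene. Raised clusters of *YMR181C* (68, 141, 125 and 170) and *YMR182W-A* also pointed away from each other, 102 nt apart, but these genes are not neighbours in the annotation.

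The genes with more than 1 raised cluster were *PET122*, *PIG2* and *YMR182W-A*. *PET122*, a translational activator of mitochondrial *COX3* mRNA, had clusters 435.5 and 652 nt upstream of its ATG, both overlapping the ORF *YER154W* (*OXA1*) of the opposite strand. The nearer one had 5 in wild-type, 21 in *set2∆*, 13 in *upf1∆* and 83 in *upf1∆set2∆*, and the farther one 2, 24, 19 and 104. Both were highest when Set2 and Upf1 were missing together, and each had upstream ATGs, 5 and 9 in number. The main cluster of the gene had 75 in wild-type and 111 in *set2∆*.

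The raised clusters of *YMR182W-A* (*MIN3*), of a mitochondrial protein, had 13, 36, 33 and 82, 30, 133, 113 and 266, and 54, 121, 124 and 157 in wild-type, *set2∆*, *upf1∆* and *upf1∆set2∆*. All 3 overlapped no other ORF, although 2 of them lay within a transcript of the opposite strand. The minor cluster of *PIG2* had 12, 45, 19 and 42. *DAL5*, the allantoate permease gene, had a raised cluster with 8, 29, 42 and 200 and another cluster 1452 nt from its ATG with 28, 20, 114 and 104, so the upstream one did not follow the raised one.

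The other start sites of the same genes were below the limit by the choice of the clusters, since any above it would be among the 146. The 142 genes had 90 further mRNA-TSSCs, 55 of them with a mean of 10 or more. Their log2 ratios of *set2∆* to wild-type ran from −0.86 to 0.91 with a median of 0.15, and were above 0 in 35 and below 0 in 18. Summed over all mRNA-TSSCs of a gene, 21 of the 60 genes with several rose by more than 2-fold, with a median of 0.78. Each sum holds a cluster chosen for its rise, so these values are a description. In *upf1∆set2∆* over *upf1∆*, 12 of the 60 sums rose by more than 2-fold, with a median of 0.41. TSSCs that began within the transcribed region of an mRNA, on its strand (B-TSSCs), numbered 41 with a mean of 10 or more in these genes, and 19 of them (46.3%) rose in *set2∆*, against 70.9% of 1854 B-TSSCs in all genes. The mean includes *set2∆*, so a B-TSSC nearly silent in wild-type could pass through its *set2∆* value alone. Both shares are therefore a description.

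In 4 of the 146 clusters, those of *YHL050C*, *DDI2*, *ASP3-2* and *ASP3-4*, the 40 nt from some read starts occur more than once in the genome, so their values could be split between copies. The value of a raised cluster also depends on where a table set its borders. The cluster of *ALG5* had 7 in wild-type and 27 in *set2∆*, whereas the cluster paired with it in the *RRP6* experiment had 287 in wild-type.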

How the data were processed

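RNA 5′ ends were sequenced by the study from 12 libraries of the *SET2* experiment and 12 of the *RRP6* experiment, while 16 further samples (8 libraries made with or without tobacco acid pyrophosphatase and 8 RNAseq libraries) were not used here. Per the labels and the methods, reads were mapped with Bowtie2 to build R64, grouped into TSSCs and normalised with DESeq2 to the reads just upstream of ORFs. The TSSCs of the *SET2* experiment were built from libraries of all its genotypes. The study filtered them in part with *upf1∆set2∆* libraries made with or without the pyrophosphatase. The deposited score values are these normalised read numbers, given as whole numbers, with 1 value for each genotype, so libraries cannot be separated. The study lists the read count of each library, and those counts were not used here. The authors' fold change and p-value columns were not used.

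All ratios were computed here as log2 of values with 1 added, with Python 3.11.15, numpy 2.4.6 and pandas 2.3.3. mRNA-TSSCs with a mean of wild-type and *set2∆* under 10 were left out. TSSCs of the 2 tables were paired by the largest overlap of at least 1 nt on the same strand. Motifs and ORFs were read from the RefSeq genome of build R64, in which all 146 annotated starts are ATG. A call was a ratio above 2-fold and no test was run. The members and gene lists were chosen with earlier results of these data known. Named clusters were the 12 largest and 6 smallest ratios of *upf1∆set2∆* to *upf1∆*, the 8 highest in *set2∆* (of which 1 is not reported here), up to 4 for each list, genes with several raised clusters, divergent pairs and those at the limit; other names were chosen after their values were seen. The scripts were tested on simulated data.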

Additional observations from a re-analysis of the deposited data

How the results depend on the processing

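For 15 results, 127 of 141 values under another setting stayed within 1.5 times the value reported. The number of raised clusters was 226 with no filter on the mean, 86 with a mean of 50 or more and 48 with a 3-fold limit. Of the 48, 70.8% were raised in *upf1∆set2∆* over *upf1∆*. With no filter, 0.442% were lowered there. With a mean of 50 or more, 14.1% rose in *upf1∆* of the *RRP6* experiment (6.73% of all), 20% fell in *rrp6∆* (2.60% of all) and 18.6% had an upstream ATG (4.80% of all). The share raised in *upf1∆set2∆* over *set2∆* was 19% with no filter, 5.81% with a mean of 50 or more (6.22% of all, so below it, where the reported share was above), 6.25% with the 3-fold limit and 7.34% among main clusters of genes. Among main clusters, an alternative chosen after seeing the data, 17.4% had an upstream ATG. With the 3-fold limit, 4 clusters of the stress list were left. Centring all ratios on the mRNA median left 115 clusters. The causes were not tested.

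No paired analysis was possible because the tables hold 1 value for each genotype, and for the same reason leaving out single libraries was not run. Clusters with means from 10 to 30 were the least certain of the levels compared: there the SD of the *upf1∆* ratio between experiments was 0.35 on the log2 scale.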
